A study of Homo sapiens with 4 samples.

Results

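The regions described here had a high signal in control C42B prostate cancer cells by methylated DNA immunoprecipitation. The peak list of the PKCl/i knockout cells held no peak near these regions. They are the autosomal peaks of the control list with a pileup of at least 27 and no knockout peak within 1000 bp. The pileup is the number of overlapping fragments at a peak's summit, and 27 is 9.24 times the mean pileup of that library. Peaks whose local background was over 5 times the lowest background of the list were left out. This gave 953 regions of 261657 control peaks. They were chosen by their control pileup, their control background and the position of knockout peaks, so these values are given as a description and were not tested.

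The cells received no treatment and were collected 48 h after they were plated, near 70% confluency, and their DNA was used for 4 libraries. They were an antibody (5mC) library and an input library from PKCl/i knockout cells (sgPKCl/i), and the same kinds from control cells (sgC, labelled WT). Each of these groups held 1 library, so no difference between genotypes has a replicate check and no p-value is given. The knockout and control peak lists, 1 from each antibody library, were analysed, and no values of the input libraries were listed. The sources used here do not say whether the knockout was a clone or a pool. The lowest background of a list, taken as the mean pileup of its library, was 4.42 in the knockout list and 2.92 in the control list, so the knockout library was 1.51 times deeper by this measure.

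C42B is an androgen-independent line derived from LNCaP prostate cancer cells. Methylation of cytosine in CpG dinucleotides is written by DNA methyltransferases with S-adenosylmethionine as methyl donor, and serine feeds methyl groups into the folate and methionine cycles that make this donor. PKCλ/ι is an atypical protein kinase C, and the series set its loss beside serine metabolism. In the assay an antibody to 5-methylcytosine pulls down single-stranded fragments, so that a region's pileup depends on how many methylated CpGs it holds, and also on how many copies of it the genome carries. In bulk cells, methylation of fewer cells and of fewer CpGs per cell cannot be told apart.

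Absence from the knockout list was uncommon among control peaks of this height. Of 109215 control peaks that met the pileup and background limits, called eligible here, 107472 (98.4%) overlapped a knockout peak by at least 1 bp. A further 790 had a knockout peak within 1000 bp without overlap, and the 953 control-only regions made up the remaining 0.873% (95% Clopper-Pearson interval 0.818 to 0.930%). Over autosomal control peaks of any height, 7.22% had no knockout peak within 1000 bp. The same rule turned round, with a knockout pileup of at least 41 to keep the same multiple of the mean, gave 2473 knockout-only regions of 115809 knockout peaks, or 2.14% (2.05 to 2.22%). These intervals cover counting error only, and the lists came from libraries of unequal depth. Where only as many knockout peaks were kept as the control list had, the most significant first, 1752 control peaks met the rule.

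The control-only regions stood at the low end of the eligible peaks in height. Their control pileup ran from 27 to 70 with a median of 29, whereas the 108262 eligible control peaks with a knockout peak within 1000 bp, called counterparts here, ran from 27 to 162 with a median of 34. The control-only share was 2.16% (554 of 25653) at pileups of 27 to 29. It was 0.973% at 30 to 34, 0.351% at 35 to 39 and 0.124% at 40 to 49. At a pileup of 50 or more, 3 of 11805 eligible peaks were control-only (0.0254%). Just below the limit, at a pileup of 26, 319 of 10009 control peaks (3.19%) had no knockout peak within 1000 bp, and just inside it, at 27, 256 of 9345 (2.74%) had none. The limit thus cuts through a gradual fall. At the other limit, 308 eligible peaks had their nearest knockout peak 501 to 1000 bp away and 154 had it 1001 to 1500 bp away, with a median control pileup of 29 on both sides. For the background limit, 17 control-only regions lay at 4 to 5 times the lowest background, and 3 peaks with no knockout peak lay at 5 to 6 times it.

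The control-only regions were also narrow and lay on a raised background. At pileups of 27 to 29, where height is the same, their median length was 392 bp (quartiles 355 and 446 bp) and that of counterparts was 492 bp (quartiles 414 and 662 bp). The shortest peak was 299 bp in the knockout list and 300 bp in the control list. Over all heights, 22.7% (216) of control-only regions were shorter than 350 bp, against 2.00% of counterparts. These groups were not matched for height, and counterparts of a pileup of 40 or more had a median length of 793 bp. At pileups of 27 to 29 the gap was smaller, since 5.28% of counterparts were 300 to 350 bp long. The control-only share was 9.09% (7.96 to 10.3%) among eligible peaks shorter than 350 bp and 0.0762% (0.0521 to 0.107%) among those of 700 bp or more. These shares by length were not matched for height either, and the part of height in them was not tested. Peak length was not part of the rule, but it comes from the same control pileup.

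Local background, expressed in multiples of the lowest of the list, showed the same ordering. Its median at pileups of 27 to 29 was 1.45 for control-only regions and 1.18 for counterparts. Only 150 of 30501 eligible peaks within 1.05 times the lowest background were control-only (0.492%). At 2 to 3 times the lowest the share was 1.64%, and at 3 to 5 times it was 2.19% (51 of 2332). The authors' fold enrichment, pileup over local background, accordingly had a median of 5.49 in control-only regions and 6.44 in counterparts at these pileups. The control-only regions were therefore high in pileup but had a lower fold over local background than counterparts of equal height. Whether this background came from the input or the antibody library is not stated.

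**Figure D1:**
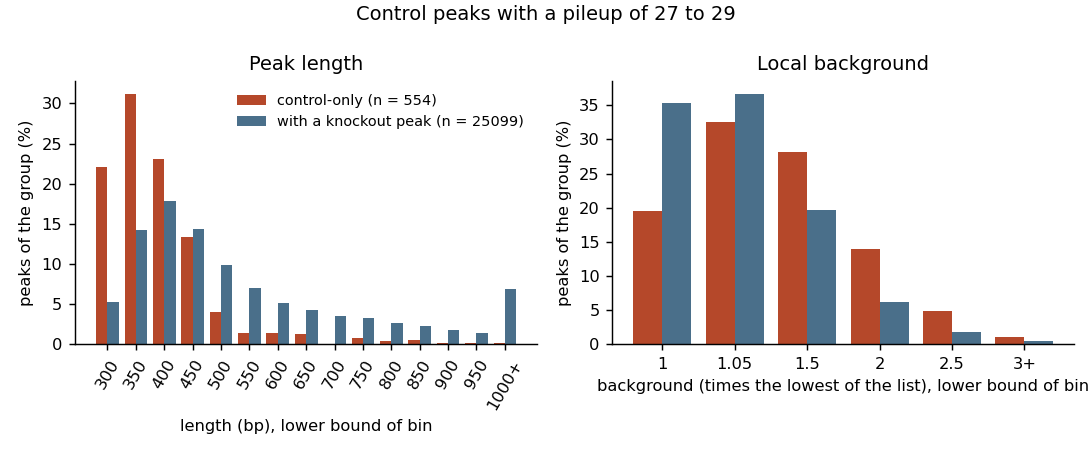
Length in bp (left) and local background in multiples of the lowest background of the control list (right) of control peaks with a pileup of 27 to 29. Bars give the percentage of each group in a bin, for 554 control-only regions and 25099 counterparts with a knockout peak within 1000 bp. Control-only regions are shorter, with a median of 392 bp against 492 bp, and lie on higher background, with a median of 1.45 times the lowest against 1.18 times.

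Elsewhere, the knockout list held peaks of lower signal at like background than the control showed at these places. For each region the control background was scaled to the knockout library, and the lowest pileup listed anywhere in the knockout list at a background within 10% of it was taken. This lowest pileup had a median of 16 (quartiles 14 and 21) and was 35 at most. Relative to the means of the libraries, it came to a median of 0.367 of the control pileup (quartiles 0.330 and 0.440), and it was no more than 0.5 of it in 854 of 953 regions (89.6%). The width a peak needs, and the local background of the knockout library at these places, were not listed and so not taken into account. The knockout pileup itself is known at none of these regions, since the lists give values at called peaks only.

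The 12 control-only regions of highest fold enrichment are described first. Their control pileups ran from 33 to 42 and their folds from 8.67 to 10.5, on backgrounds of 1.00 to 1.29 times the lowest. The nearest knockout peak lay between 1171 and 33213 bp away. At these control backgrounds, scaled to the knockout library, the lowest pileup anywhere in the knockout list was 14. The knockout background at the 12 places was not listed, so whether a peak could have been called there was not tested. The nearest knockout peaks had pileups of 21 to 48, and 9 of these 12 overlapped a control peak, near the 76.3% of all autosomal knockout peaks that did so.

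The highest fold was at chr17:874570-876281 (positions in hg19 throughout). This region had a control pileup of 42 (95% Poisson interval 30.3 to 56.8) and a fold of 10.5, and at 1712 bp it was also the longest of the 953. Within 10 kb lay 5 other control peaks, of which 2 overlapped a knockout peak, and the nearest knockout peak, of pileup 28, was 4735 bp away. Here the absence from the knockout list took in neighbouring control peaks as well.

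On chromosome 1 the pattern was the opposite. The region at chr1:150748346-150748821 had a control pileup of 39 (27.7 to 53.3) and a fold of 9.99, and all 7 other control peaks within 10 kb overlapped a knockout peak. The nearest of the knockout peaks lay 1171 bp away with a pileup of 48. Within 10 kb the chromosome 1 region was thus the only control peak that overlapped no knockout peak. Its knockout pileup is not known.

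Other regions of high fold stood alone. At chr10:8150287-8150702 the control pileup was 39 (27.7 to 53.3), no other control peak lay within 10 kb, and the nearest knockout peak was 33213 bp away. At chr2:77606274-77606785 the control pileup was 38 (26.9 to 52.2), with no other control peak within 10 kb and the nearest knockout peak 18529 bp away. The region at chr2:15012666-15013165, with a control pileup of 37 (26.1 to 51.0), was isolated in the same way, and its nearest knockout peak was 22423 bp away. At chr22:32825059-32825473 the control pileup was 35 (24.4 to 48.7), and the nearest knockout peak was 15272 bp away. These 4 regions each had no other peak of the control list within 10 kb.

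Of the remaining 6, 4 resembled the chromosome 1 region, in that every other control peak within 10 kb overlapped a knockout peak. The region at chr12:75469942-75470456 had a control pileup of 35 and 1 such neighbour, and that at chr3:183215557-183215975 had a pileup of 42 and 1 such neighbour. The region at chr22:47103226-47104005 had a pileup of 37 and 3 such neighbours, and that at chr2:4971673-4972293 had a pileup of 33 and 2 such neighbours. In the last 2 regions no control neighbour overlapped a knockout peak. On chromosome 18 the region at chr18:6271303-6272210 had a pileup of 34 and 2 other control peaks within 10 kb, and on chromosome 2 the region at chr2:19877848-19878358 had a pileup of 35 and 1 other control peak. Over the 12 regions together, 16 of 22 other control peaks within 10 kb overlapped a knockout peak.

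Long regions among the 953 were few. After the region on chromosome 17, the longest were chr1:155496207-155497794 with 1588 bp and a pileup of 30, and chr17:79382767-79384296 with 1530 bp and a pileup of 36. Next came chr16:79471955-79473280 with 1326 bp and a pileup of 31, and chr9:76089419-76090486 with 1068 bp and a pileup of 33. The second chromosome 17 region lay on a background of 4.06 times the lowest and had a fold of only 2.87, whereas the chromosome 1 and chromosome 16 regions lay on the lowest background with folds of 7.90 and 8.16. The longest of these 5 also had the highest fold, 10.5, but folds did not follow length in order. Regions picked by length cannot show how length and fold relate.

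The regions of highest pileup, looked up after the values were seen, were not the most enriched ones. The highest, at chr20:29647811-29648131, had a pileup of 70 (54.6 to 88.4) on a background of 4.93 times the lowest, and a fold of 4.61. Next were chr16:33875389-33875688 with 59, chr7:61820348-61820663 with 52, chr16:929357-929853 with 49 and chr7:100642195-100642494 with 46. All 5 had backgrounds of 2.79 to 4.93 times the lowest and folds of 3.06 to 5.46. Among the 29 control-only regions with a pileup of 40 or more the median background was 3.32 times the lowest, against 1.52 in counterparts of that height.

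Most control-only regions lay within a few kilobases of a knockout peak. The gap to the nearest one had a median of 3205 bp (quartiles 1803 and 7255 bp). Of the 953, 312 (32.7%, 29.8 to 35.8%) had no knockout peak within 5000 bp, 176 (18.5%) had none within 10000 bp and 8 had none within 100000 bp. The nearest knockout peak overlapped a control peak in 743 regions (78.0%, 75.2 to 80.6%), and 76.3% of all autosomal knockout peaks did so. Among the 292 regions with their nearest knockout peak 1001 to 2000 bp away, that peak was absent from the control list in 54 (18.5%). The share among the nearest knockout peaks was thus near that over the whole knockout list.

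The 5 regions farthest from any knockout peak lay in stretches without other control peaks. The farthest was chr9:11618308-11618710, with a control pileup of 28 (18.6 to 40.5) and its nearest knockout peak 563141 bp away. It was followed by chr1:98518952-98519330 (pileup 28, gap 214527 bp) and chr14:85278654-85279100 (pileup 29, gap 211527 bp). The other two were chr7:136658200-136658564 (pileup 29, gap 175927 bp) and chr16:60701189-60701493 (pileup 27, gap 144083 bp). None of the 5 had another control peak within 10 kb, and none had a peak pair within 100 kb.

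Control-only regions had fewer other control peaks around them than counterparts, at distances beyond the reach of the rule. Here the groups were not matched for their own height, with a median pileup of 29 in control-only regions and 34 in counterparts. The part of height in these differences was not tested. At 5 to 10 kb from the summit there were 0.171 other control peaks per kb around control-only regions and 0.300 around counterparts. At 50 to 100 kb there were 0.167 per kb around control-only regions and 0.250 around counterparts. No other control peak lay within 10 kb of 150 control-only regions (15.7%, 13.5 to 18.2%), and this was so for 4.80% of counterparts. The gap to the next control peak had a median of 2810 bp for control-only regions and 810 bp for counterparts. Both of these last measures include the 1000 bp on each side where the rule bars knockout peaks, and with them most control peaks, since 88.4% of other control peaks overlapped a knockout peak, so they are given as a description only.

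The control peaks in their surroundings were in turn less often found in the knockout. Of the other control peaks 5 to 10 kb from a control-only summit, control-only regions themselves left out, 84.1% (1369 of 1628) overlapped a knockout peak, against 91.9% around counterparts. At 50 to 100 kb the shares were 87.3% and 90.8%. The neighbours were alike in height, with a mean pileup of 31.4 around control-only regions and 30.6 around counterparts at 5 to 10 kb. Over all autosomal control peaks other than the 953, 88.4% overlapped a knockout peak. At 1 to 2 kb the share was 65.6% (139 of 212), but there the rule itself bars part of the knockout peaks. A neighbour near several regions was counted for each of them. Peak density differed between the neighbourhoods, and the regions themselves differed in height from counterparts, as given above. The part of either in these shares was not tested.

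**Figure D2:**
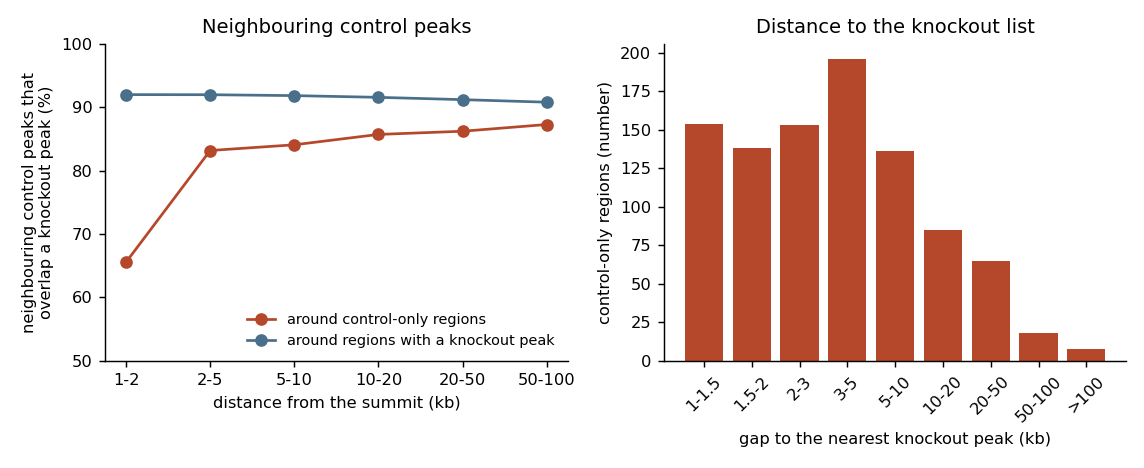
Left, share of neighbouring control peaks that overlapped a knockout peak, in percent (axis from 50 to 100%), by distance from the summit in kb, around control-only regions and around counterparts. Right, number of control-only regions by the gap in kb to their nearest knockout peak; the share on the left is 84.1% at 5 to 10 kb around control-only regions, against 91.9% around counterparts.

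Most control-only regions stood singly and some came in rows. In the order of the control list, 884 stood singly, 30 pairs were consecutive and 3 runs held 3 regions. Control-only regions made up 0.371% of autosomal control peaks. The number of rows to be had at that share alone was not computed. The tightest run spanned 2964 bp on chromosome 17 and consisted of chr17:79393056-79393528, chr17:79393634-79393989 and chr17:79395049-79396019, with pileups of 28, 34 and 36. Another spanned 6988 bp on chromosome 21 from 11176842, with pileups of 45, 42 and 45 on backgrounds of 4.06 to 4.95 times the lowest. The third, on chromosome 2, spanned 61546 bp from 91634454, with pileups of 40, 37 and 30. All 3 runs had folds between 2.78 and 5.82, below the 12 regions described above.

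By chromosome the control-only share of eligible peaks differed several-fold. It was highest on chromosome 13 at 1.94% (1.46 to 2.52%, 55 regions), followed by chromosome 7 at 1.41% (1.19 to 1.67%, 138 regions) and chromosomes 21 and 2 at 1.26% (15 regions) and 1.25% (66 regions). It was lowest on chromosome 19 at 0.349% (0.210 to 0.544%, 19 regions), followed by chromosome 4 at 0.450% and chromosome 6 at 0.467%. The intervals of chromosomes 13, 7 and 2 lay above the genome share of 0.873%, and those of chromosomes 19, 4, 6, 16, 17 and 5 lay below it. These intervals treat peaks as independent and were not adjusted for the number of chromosomes, so this is a description and not a test. Chromosome 7 alone held 138 of the 953 regions.

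**Figure D3:**
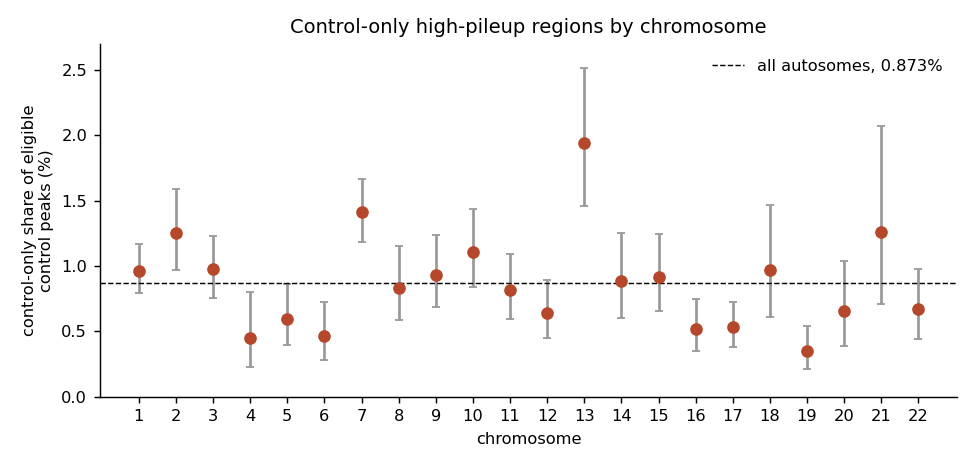
Control-only share of eligible control peaks in percent for each autosome. Points are shares, bars are 95% Clopper-Pearson intervals that cover counting error only, and the dashed line is the genome share of 0.873%; chromosome 13 is highest at 1.94% and chromosome 19 lowest at 0.349%.

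Within some chromosomes the control-only share differed between segments. The 4 segments given here were chosen after the values were seen. That on chromosome 3 lies on a chromosome with a share of 0.975%, whose interval (0.760 to 1.23%) held the genome share. On chromosome 13, 54 of 55 control-only regions lay before 35 Mb, on the part of the long arm next to the centromere. There they made up 3.17% (2.39 to 4.12%) of 1702 eligible peaks, against 0.0881% (1 of 1135) on the rest of the chromosome. On chromosome 7 from 150 Mb to the end they made up 2.79% (37 of 1324), against 1.19% on the rest, and most of its 138 regions lay outside the segment. On chromosome 2 before 95 Mb, which is the short-arm side, the share was 2.27% (48 of 2116), against 0.569% (18 of 3165) beyond it. On chromosome 3 from 170 Mb to the end it was 1.16% (0.758 to 1.69%, 26 of 2244), against 0.890% (0.645 to 1.20%) on the rest, and these intervals overlapped. Together the 4 segments held 165 control-only regions (17.3%) and 6.76% of the eligible peaks, and outside them the share was 0.774%.

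The windows of 1 Mb with most control-only regions included 4 in these segments. Chromosome 7 at 155 to 156 Mb held 11 of 139 eligible peaks, and chromosome 13 at 24 to 25 Mb held 8 of 198. Of the windows with 6 regions each, chromosome 3 at 153 to 154 Mb had 51 eligible peaks, chromosome 13 at 27 to 28 Mb had 86, chromosome 7 at 102 to 103 Mb had 200 and chromosome 7 at 151 to 152 Mb had 206. The 953 regions were spread over 597 windows, of which 387 held a single region.

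The segments differed in background and in the pileup ratio of shared peaks. On proximal chromosome 13 the median background was 1.85 times the lowest in the knockout list and 1.78 times in the control list, and on distal chromosome 7 it was 2.04 times in the knockout list and 1.80 times in the control list. Over all autosomes it was 1.27 times in the knockout list and 1.14 times in the control list. In turn, 71.7% of control peaks on proximal chromosome 13 and 73.6% on distal chromosome 7 were eligible, against 42.5% over all autosomes. For peaks found in both lists, the median log2 ratio of knockout to control pileup, each relative to its library mean, was 0.00 on proximal chromosome 13, against 0.02 on the rest of that chromosome. On distal chromosome 7 it was 0.04, against 0.08 on the rest, and over 202907 autosomal pairs it was 0.04. A pair is a peak of each list that overlaps only the other.

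On the short-arm side of chromosome 2 and on distal chromosome 3 this ratio lay further below that of the rest. It was -0.16 on the short-arm side of chromosome 2 over 5197 pairs, against -0.04 on the rest of that chromosome. On distal chromosome 3 it was -0.21 over 3309 pairs, against 0.10 on the rest. The median background was 1.00 times the lowest in the knockout and in the control list on the chromosome 2 segment. On distal chromosome 3 it was 1.15 times in the knockout list and 1.29 times in the control list. In these segments, peaks that both lists held also had lower knockout pileup than on the rest of the chromosome. The background of these pairs was lower too. Its mean log2 ratio was -0.11 on distal chromosome 3, against 0.14 on the rest. On the short-arm side of chromosome 2 it was -0.0084, against 0.057 on the rest. The part of background in the pileup ratios was not tested.

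A rule by fold in place of pileup, added after the values were seen, gave another order of the segments. Among control peaks with a fold of at least 6, the share with no knockout peak within 1000 bp was 0.971% over all autosomes (984 of 101307). On proximal chromosome 13 it was 0.555% (5 of 901), against 0.569% on the rest of the chromosome. On distal chromosome 7 it was 0.452% (3 of 663), against 0.704% on the rest. On the short-arm side of chromosome 2 it was 3.55% (88 of 2478), against 1.67% on the rest, and on distal chromosome 3 it was 1.61% (29 of 1804), against 1.08%. The excess on proximal chromosome 13 and distal chromosome 7 was thus seen with the pileup rule and not with the fold rule.

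**Figure D4:**
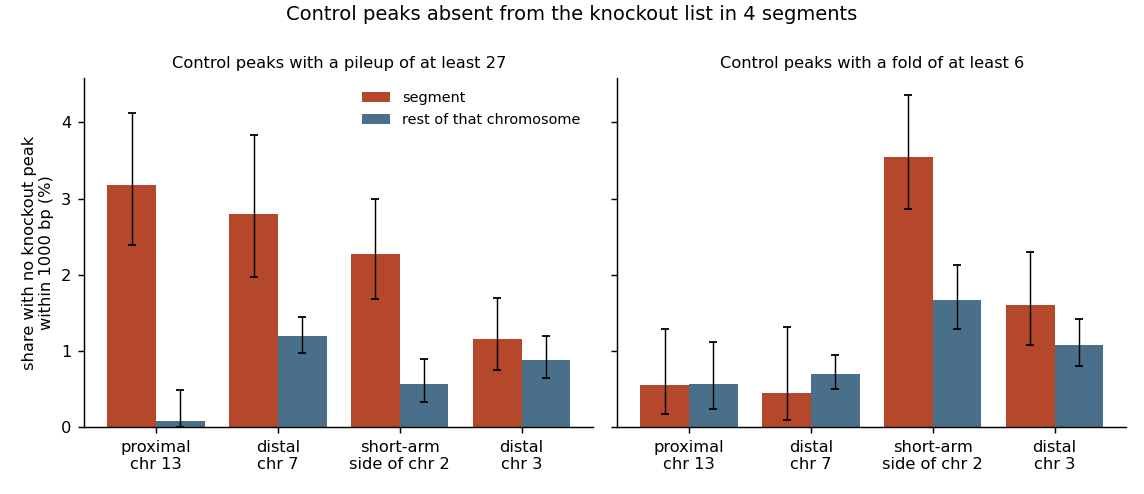
Share of control peaks with no knockout peak within 1000 bp, in percent, in 4 segments and on the rest of the same chromosomes, for peaks with a pileup of at least 27 (left) and with a fold of at least 6 (right). Bars on the columns are 95% Clopper-Pearson intervals; proximal chromosome 13 has 3.17% by pileup and 0.555% by fold, and the short-arm side of chromosome 2 has 2.27% and 3.55%.

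The regions found in the knockout list only, under the mirrored rule, were distributed differently over these segments. They made up 3.56% (59 of 1657) of eligible knockout peaks on proximal chromosome 13, against 1.75% on the rest of the chromosome, so that this segment was rich in list-only regions of both genotypes. On distal chromosome 3 they made up 0.547% (9 of 1645), against 2.82% on the rest. On the short-arm side of chromosome 2 the share was 1.62%, against 2.14% beyond it, and on distal chromosome 7 it was 2.16% (27 of 1248), against 274 of 9122 eligible knockout peaks on the rest.

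Peaks shared by both lists had slightly lower knockout pileup around the control-only regions. Among 20514 pairs within 100 kb of a control-only summit the median log2 ratio was 0.01 (order-statistic interval 0.01 to 0.02), against 0.04 over all autosomal pairs (0.04 to 0.04). The intervals treat pairs as independent, although neighbouring pairs share segments and all come from the same libraries. The quartiles were -0.20 and 0.23 around control-only regions and -0.18 and 0.26 over all pairs, so the distributions overlapped almost entirely. Taken region by region, the local median was below 0 around 49.5% of 933 control-only regions with pairs, against 29.1% of counterparts. A counterpart could count its own pair, which a control-only region never has, and counterparts had more control peaks around them. The part of these differences in the 2 percentages was not tested. Without chromosomes 2 and 3 the median of the pairs around control-only regions was 0.03. The median of all autosomal pairs without these chromosomes is not given here. It was -0.013 with pairs within 20 kb, with a pileup of at least 35 or with no knockout peak within 5000 bp. The mean log2 ratio of background over the same pairs was 0.12, against 0.11 over all pairs.

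Bins of 5 Mb were also ranked by the ratio of their shared peaks and put in 5 equal groups. The rule did not use this ratio itself. It did use control pileups and the positions of knockout peaks, from which the ratio is also built, so the ranking is not independent of the rule. In the group with the lowest ratio, from -0.23 to -0.03, the control-only share was 1.35% (1.17 to 1.54%). It was 1.14% and 0.804% in the next groups, and 0.681% and 0.693% (0.591 to 0.809%) in the upper ones. The groups of bins were not matched for peak height, and the segments of low ratio given above were not left out. The part of either in these shares was not tested. Bins ranked by their knockout background gave shares of 0.647%, 0.890%, 0.894%, 0.687% and 1.00% from the lowest to the highest group, with no steady order. Across the 22 autosomes, which share the libraries, the control-only share and the median ratio of pairs had a Pearson r of -0.44 and a Spearman rho of -0.57, given as a description.

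**Figure D5:**
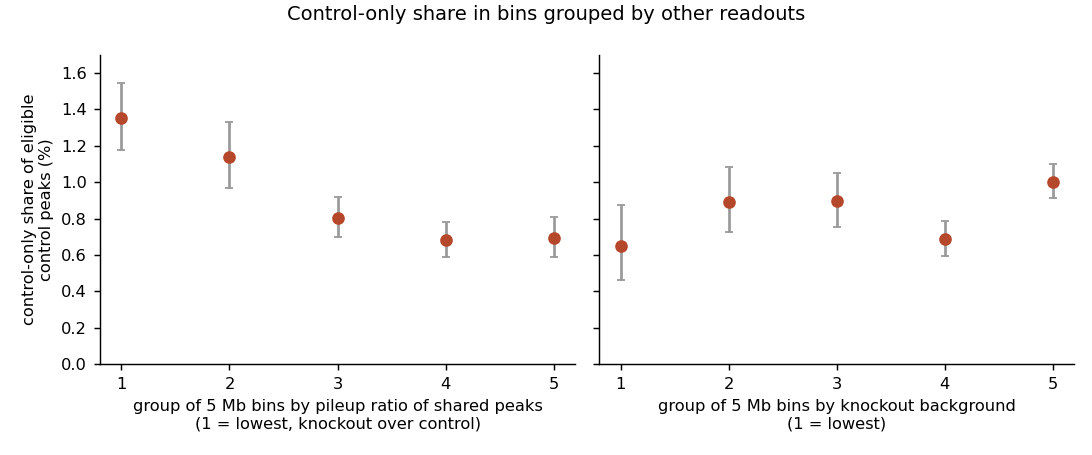
Control-only share of eligible control peaks in percent, over bins of 5 Mb in 5 equal groups. Bins are ranked by the median log2 pileup ratio of shared peaks, knockout over control (left), or by median knockout background (right); points are shares with 95% Clopper-Pearson intervals, and on the left the share is 1.35% in the lowest group and 0.693% in the highest.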

How the data were processed

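Per the submitters' processing notes, the reads went through FastQC, BWA (build hg19) and MACS2; the sources used here give no versions or settings and do not say how the input was used. Each deposited list, 1 per antibody library, gives the pileup signal at the summit as a whole number not scaled between libraries, the authors' fold enrichment (a ratio), −log10 p and −log10 q values and the peak length. Lists were matched to samples by genotype and antibody words in their names.

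From these, the background of each peak was computed as pileup plus 1, divided by fold, minus 1. Gaps were taken from the end of a peak to the start of the next, and a gap of 1000 bp counted as within. Pairs were a knockout and a control peak that overlap each other by at least 1 bp and nothing else; bins of 5 Mb needed 20 pairs. Python 3.11.15, pandas 2.3.3, numpy 2.4.6, scipy 1.17.1 and matplotlib 3.10.9 were used, and the scripts were tested on simulated lists. Tag totals were not listed, so precision rests on exact 95% Poisson and Clopper-Pearson intervals, which cover counting error only.

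The regions, segments and lists were chosen with earlier results of these data known. Regions named were the 12 of highest fold, the 5 longest, the 5 farthest from a knockout peak, the 5 windows with most regions (ties included) and the longest runs. Planned results on CpG density, promoters and gene lists were not run, since no hg19 genome or annotation was used here; no gene is named and no sequence shown.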

Additional observations from a re-analysis of the deposited data

How the results depend on the processing

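The number of control-only regions and their share of eligible peaks followed the thresholds of the rule. The numbers were 399 and 99 with a pileup of at least 30 and 35, 1743 where only overlapping knockout peaks counted, 312 with no knockout peak within 5000 bp, 264 for control peaks with a −log10 q of at least 15, and 1752 where only as many knockout peaks, the most significant ones, were kept as the control had. The other alternatives kept the number within 1.5 times of 953. In the same order the shares were 0.477%, 0.188%, 1.60%, 0.286%, 0.321% and 1.60%. The share was 0.605% with no knockout peak within 2000 bp, 1.03% with no limit on background, 0.710% with a background of at most 2 times the lowest, and 1.01% where knockout peaks needed a −log10 q of at least 5. It was 0.971% by fold and 0.812% without proximal chromosome 13 and distal chromosome 7. The median log2 ratio of pairs around the regions, 0.014, turned to -0.013 with a pileup of at least 35, with no knockout peak within 5000 bp and with pairs within 20 kb. It was 0.0062 at a pileup of 30 or a −log10 q of 15, 0.0079 with 2000 bp, 0.034 where only overlap counted, 0.027 without chromosomes 2 and 3 and 0.030 with pairs within 500 kb. In all 15 alternatives it lay below the 0.040 of all autosomal pairs, which include chromosomes 2 and 3. Fewer or more peaks pass by construction where a threshold moves; beyond that the cause was not tested. Of 41 alternatives, 14 stayed within their bounds, 24 left them and 3 turned sign; 6 were chosen after seeing the data. The depth of the knockout library, 1.51 times that of the control, was not matched. No paired analysis was possible because there was a single library in every group.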

Other observations

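Control peaks left out for their background behaved unlike the eligible ones. Of 474 autosomal control peaks with a pileup of at least 27 and a background over 5 times the lowest, 177 (37.3%, 33.0 to 41.9%) had no knockout peak within 1000 bp. Their median pileup was 132, their median background 19.5 times the lowest and their median fold 2.35. They fell in 37 windows of 1 Mb, and 89 of them in just 3, on chromosome 4 at 49 to 50 Mb (46), chromosome 10 at 42 to 43 Mb (26) and chromosome 2 at 92 to 93 Mb (17).

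On chromosome X, 3 of 745 peaks that met the pileup and background limits had no knockout peak within 1000 bp (0.403%, 0.0831 to 1.17%). On chromosome Y, 13 such peaks had no knockout peak within 1000 bp. The number of Y peaks that met the limits is not given here, so no share is stated.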
